A study of Mus musculus with 14 samples.

Results

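The 38 genes described here carry glucose from its uptake to lactate, to the entry of pyruvate into mitochondria, and through the pentose phosphate branch. They were chosen by gene symbol for their place in these pathways, by a rule that uses no measured value, and were found among the 17890 genes of the deposited table. The list was nevertheless drawn up with earlier results of these data known. All 38 were in the table and all 38 passed the filter on low counts that left 12839 genes for testing. By step they are 3 hexose transporters, 3 hexokinases, 9 genes that act between glucose 6-phosphate and the triose phosphates, 6 genes of the ATP-yielding (payoff) reactions, 4 genes of lactate formation and transport, 7 genes of pyruvate entry and 6 genes of the pentose phosphate pathway.

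Messenger RNA was sequenced from cultures that the labels call bone marrow-derived macrophages, in 8 libraries of the first of the study's 2 phases. The D libraries, 4 in number, came from mice made diabetic and the 4 M libraries from healthy control mice. All donors were males of C57BL/6J, an inbred strain, aged 8 weeks when the experiment began. The diabetic group received streptozotocin, which kills pancreatic beta cells, at 42 to 45 mg/kg on each of 5 days after a fast of 12 h. Mice above 16.9 mmol/L of blood glucose were taken as diabetic and kept hyperglycaemic for 6 weeks. Marrow progenitors of both groups were then grown for 7 days with M-CSF, the macrophage growth factor, in medium with 5 mmol/L glucose, so both groups were cultured at the same glucose level. The letter D was read as diabetic. The letter M has no explanation in the labels and was assigned to healthy mice by elimination, so all directions below would reverse were the letters swapped. Whether separate animals gave the libraries is not stated, and the p-values therefore reflect only the spread among these libraries. Second-phase samples, 3 diabetic-trained and 3 untrained, were not analysed here.

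Glycolysis splits glucose into pyruvate in a first stretch of reactions that spends ATP and a second stretch that returns it. Pyruvate is then reduced to lactate and exported, or enters mitochondria and is converted to acetyl-CoA by pyruvate dehydrogenase, which the pyruvate dehydrogenase kinases switch off. The pentose phosphate pathway branches off at glucose 6-phosphate and yields NADPH and ribose phosphate. Macrophages and neutrophils rely on glycolysis for much of their ATP, and inflammatory stimuli are known to raise it in macrophages.

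Transcripts of 19 of the 38 genes were higher in D and those of 5 were lower, while 14 did not pass. The test was edgeR's quasi-likelihood F-test, Benjamini-Hochberg adjusted over all 12839 genes, at a threshold of 0.05. Among all tested genes 34.7% passed, 17.4% as higher and 17.3% as lower, so the share of higher members stood well above the background and the share of lower members near it. Scaled by library totals alone, 11.9% of tested genes were higher and 26.1% lower, beside 13 members higher and 5 lower. The median log2 fold change, D over M, was 0.31 over the 38 members and -0.03 over all tested genes, and 30 of the 38 were positive against 45.9% of all genes. In CPM (estimated counts scaled to a common library size), the D and M libraries did not overlap for 26 members, 21 with D above M and 5 with D below M. Over all tested genes 34.7% did not overlap, 16.3% with D above M and 18.4% with D below M. In these bulk samples, fewer cells of a type and less RNA per cell cannot be told apart.

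**Figure D1:**
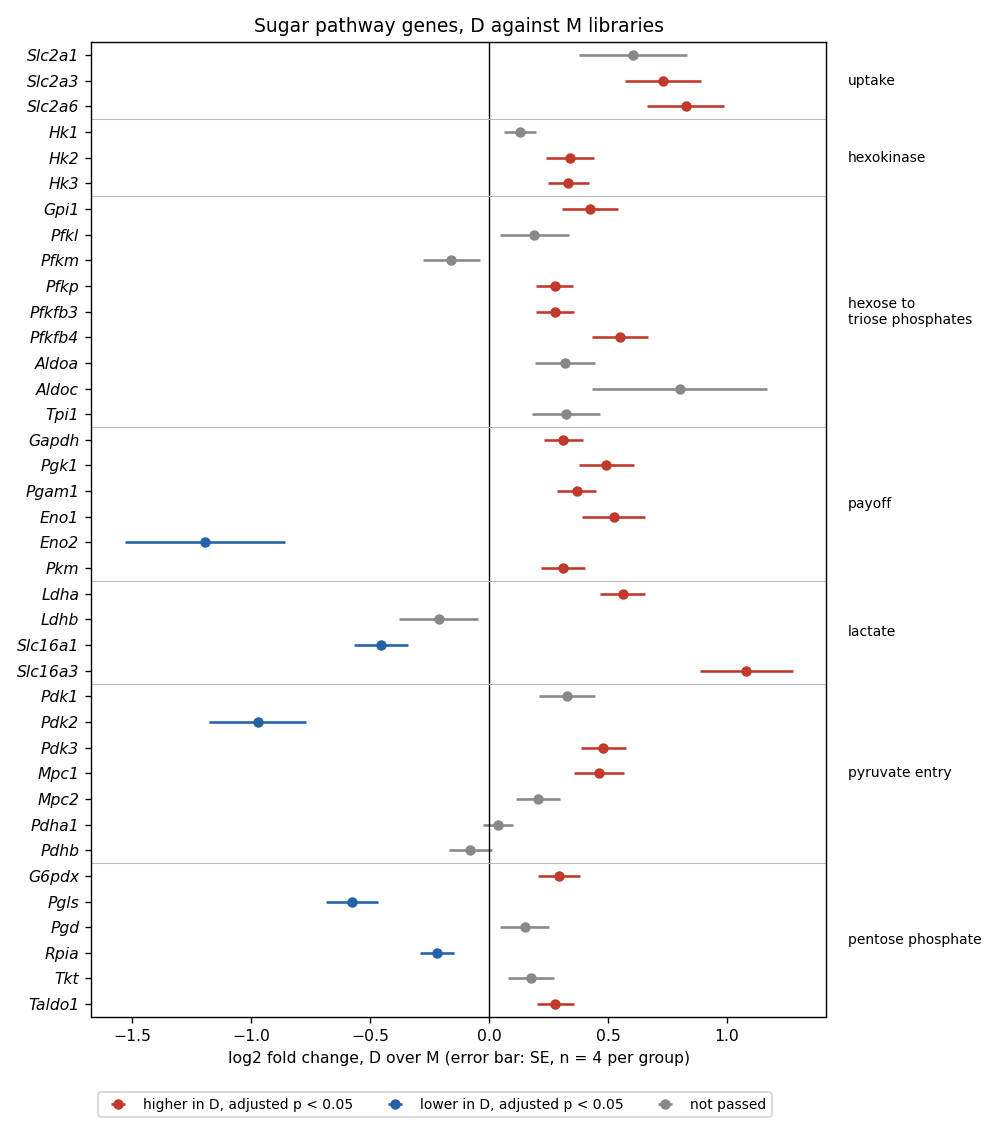
Log2 fold change of each of the 38 genes, D over M, with its standard error (n = 4 libraries a group), ordered by step. Red points (19) were higher in D and blue points (5) lower at an adjusted p under 0.05, and grey points (14) did not pass; Slc16a3 lies farthest to the right at 1.08 and Eno2 farthest to the left at -1.20.

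Each library held 19048195 to 20027967 estimated counts. The 38 genes took 1.78%, 1.90%, 2.07% and 1.71% of the counts of the D libraries, against 1.67%, 1.53%, 1.58% and 1.59% of those of the M libraries. D replicate 3 was the highest D library for 29 of the 38 members. It was also the highest D library for 69.3% of the 2233 genes called higher in D and for 35.3% of all tested genes. Without it, 19 members were higher and 5 lower, beside 16.3% and 14.5% of all genes tested in that fit. Without D replicate 1 the counts were 22 and 4, beside 22.1% and 19.3% of all genes. Without D replicates 1 and 3 together they were 19 and 4, beside 18.2% and 15.0%.

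**Figure D2:**
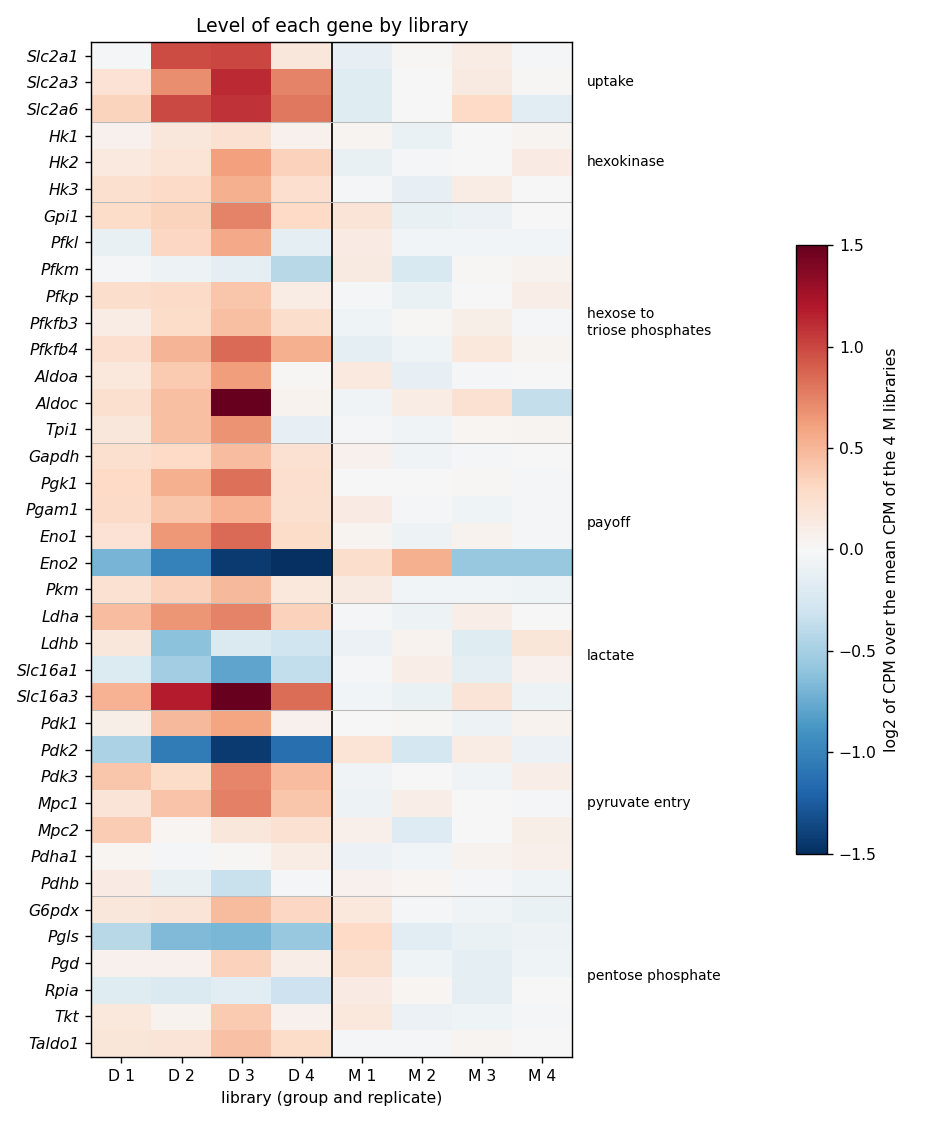
Level of the 38 genes in each library (columns, D replicates 1 to 4 left of M replicates 1 to 4) as log2 of CPM over the mean CPM of the 4 M libraries (colours saturate at the ends of the scale). D replicate 3 has the strongest colour of the 4 D libraries in most rows, and the rows of Slc16a1, Pdk2, Pgls, Rpia and Eno2 are blue in D.

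The markers of the labelled cell type, and of others, moved with the groups. Of 10 macrophage markers 6 were higher in D and none lower, and their summed level was 8969 to 14258 CPM in the D libraries and 6468 to 7346 CPM in the M libraries. Most of that sum was Lyz2, the lysozyme gene that neutrophils also express, at 6481, 7692, 10898 and 7509 CPM in the D libraries, against 4636, 4529, 4995 and 4262 CPM in the M libraries. Itgam, an integrin that neutrophils share, averaged 2410.2 ± 338 CPM in the D libraries and 1886 ± 43.6 CPM in the M libraries (SD, n = 4 each, as for the genes that follow). Csf1r, the receptor for M-CSF, averaged 209 ± 22.5 CPM in the D libraries and 162 ± 9.97 CPM in the M libraries. Adgre1, which encodes F4/80, stood at 87.3 ± 22.4 CPM in the D libraries and 46.7 ± 6.91 CPM in the M libraries, and Fcgr1, an antibody receptor, at 21.9 ± 3.17 CPM in the D libraries and 8.02 ± 1.62 CPM in the M libraries. All 4 were called higher in D. Cd68, a lysosomal protein of phagocytes, averaged 179 ± 14.4 CPM in the D libraries and 192 ± 39.7 CPM in the M libraries and did not pass. Mertk, a receptor for dying cells, and C1qa, a complement chain, both of mature macrophages, stood at only 0.607 to 1.02 and 1.65 to 2.41 CPM in the D libraries and at 0.751 to 1.50 and 0.440 to 0.952 CPM in the M libraries. At these low levels C1qa was called higher in D (log2 fold change 1.46 ± 0.27, adjusted p 0.00259) and Mertk did not pass. The highest list was that of 11 neutrophil markers, of which 8 were higher in D and none lower, with sums of 39804 to 61337 CPM in the D libraries against 35188 to 37169 CPM in the M libraries. The 8 B-lineage markers summed to 58.9 to 205 CPM in the D libraries and 977 to 1271 CPM in the M libraries, with 6 lower and none higher. Of 7 basophil and mast cell markers 6 were higher (791 to 1178 CPM in the D libraries, 453 to 530 CPM in the M libraries). Erythroid markers summed to 915 to 4225 CPM in the D libraries and 2973 to 5711 CPM in the M libraries, and none of the 6 passed. Of 7 genes of dividing cells 3 were higher in D (sums of 1477 to 1675 CPM in the D libraries, 1337 to 1430 CPM in the M libraries). T and NK cell genes had 3 of 5 higher (50.1 to 53.7 CPM in the D libraries, 31.5 to 37.0 CPM in the M libraries). Dendritic genes had 3 of 4 lower (53.0 to 106 CPM in the D libraries, 127 to 145 CPM in the M libraries), and stromal genes had 3 of 4 lower (19.1 to 22.4 CPM in the D libraries, 24.2 to 40.3 CPM in the M libraries). No marker was at 0 in every library. The part of these cell types in the results on sugar genes was not tested.

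**Figure D3:**
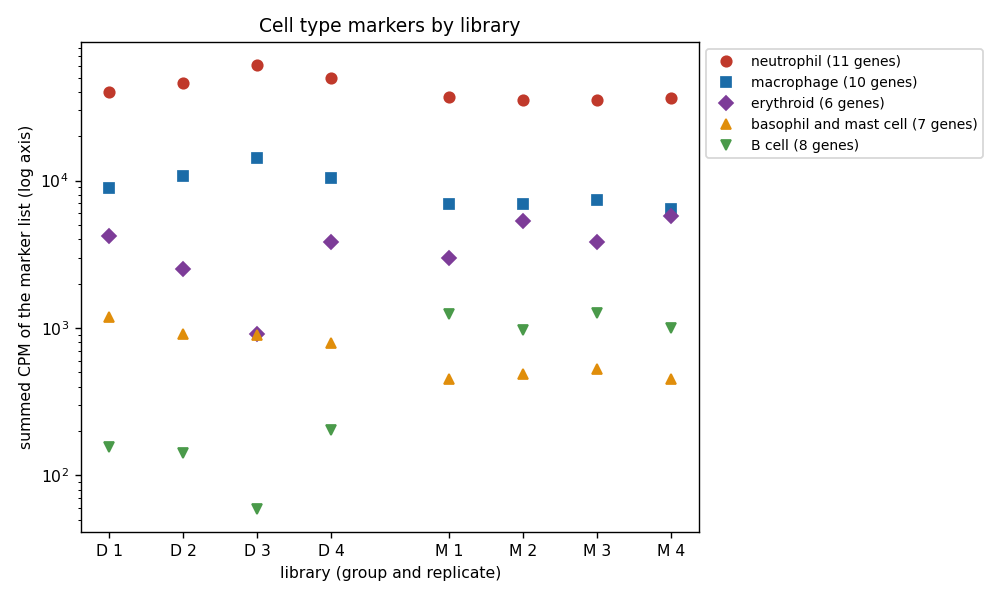
Summed CPM of 5 marker lists in each library (log axis), D libraries left of M libraries, one symbol a list. D replicate 3 has the highest neutrophil sum (61337 CPM) and macrophage sum (14258 CPM) and the lowest B cell sum (58.9 CPM) and erythroid sum (915 CPM).

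Transcripts of both transporter genes with the higher levels per length rose at the uptake step. Slc2a3, which encodes the high-affinity glucose transporter GLUT3, had 516, 718, 960.1 and 743 CPM in the D libraries, against 390.4, 445, 486 and 448 CPM in the M libraries. Every D library exceeded every M library, and the gene rose 1.66-fold (log2 fold change 0.73 ± 0.16, adjusted p 0.00609). Slc2a6 encodes GLUT6, a hexose transporter of lysosomal membranes in macrophages, and had 76.2, 120.0, 128 and 104 CPM in the D libraries, against 53.4, 60.0, 74.1 and 54.3 CPM in the M libraries. It too rose without overlap (log2 fold change 0.83 ± 0.16, adjusted p 0.00418). Slc2a1, the gene of the basal glucose transporter GLUT1, had 38.5, 76.5, 78.1 and 43.7 CPM in the D libraries, against 35.8, 39.4, 42.1 and 38.3 CPM in the M libraries. D replicates 2 and 3 stood far above the M libraries and D replicates 1 and 4 close to them, and the difference missed the threshold (log2 fold change 0.60 ± 0.23, adjusted p 0.0693). With the replicate number as a block its adjusted p was 0.0432, in DESeq2's test 0.0125, without D replicate 1 0.0125 and without D replicate 4 0.0380. Per length, Slc2a3 was the leading transporter in both groups, at 334 ± 70.9 TPM in the D libraries and 216 ± 23.5 TPM in the M libraries, and made up 67.4% to 73.5% of the summed TPM of the 3 genes in D against 70.0% to 73.3% in M. With the most abundant transcript alone, the Slc2a6 call ended (adjusted p 0.0849).

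At the hexokinase step, where glucose is phosphorylated and so held in the cell, 2 of 3 genes were higher. Hk3, the hexokinase of myeloid cells and the highest of the 3 per length (314 ± 19.8 TPM in the D libraries and 265 ± 20.5 TPM in the M libraries), had 514, 530.3, 628 and 518 CPM in the D libraries, against 431, 401, 469 and 438 CPM in the M libraries. Hk2, the inducible form, had 116, 121, 160.2 and 133 CPM in the D libraries, against 97.0, 103, 106 and 114 CPM in the M libraries. Both had every D library above every M library, with log2 fold changes of 0.33 ± 0.09 (adjusted p 0.0129) for Hk3 and 0.34 ± 0.10 (adjusted p 0.0237) for Hk2. Hk1, the constitutive form, averaged 192 ± 10.6 CPM in the D libraries and 175 ± 8.35 CPM in the M libraries (SD, n = 4 each) but missed the threshold (log2 fold change 0.13 ± 0.07, adjusted p 0.152), though its groups did not overlap. The share of Hk1 in the summed TPM of the 3 genes was 18.9% to 21.1% in the D libraries, below the 21.4% to 23.3% of the M libraries. The Hk2 call ended without M replicate 1, 2 or 3 (adjusted p 0.0681, 0.0613 and 0.0509) and with library totals, TPM or FPKM (0.0558 to 0.0835). With the most abundant transcript alone, neither Hk3 (0.452) nor Hk2 (0.311) passed. The Hk3 gene overlaps Unc5a, a tested gene, on the genome, and whether counting used strand is not given.

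Between glucose 6-phosphate and the triose phosphates, 4 of 9 genes were higher and none was lower. Gpi1, the isomerase that makes fructose 6-phosphate, had 1159, 1212, 1604 and 1184 CPM in the D libraries, against 1095, 889.8, 904 and 954 CPM in the M libraries, without overlap (log2 fold change 0.42 ± 0.12, adjusted p 0.0174). Pfkfb4 makes and breaks fructose 2,6-bisphosphate, a strong allosteric activator of phosphofructokinase, and had 226, 269, 341 and 273 CPM in the D libraries, against 172, 180.5, 211 and 194 CPM in the M libraries. It moved most of the 4 called genes here (log2 fold change 0.55 ± 0.12, adjusted p 0.00530). Its paralogue Pfkfb3, with the higher kinase activity of the pair, had 93.4, 105, 118 and 104 CPM in the D libraries, against 82.5, 87.4, 91.8 and 84.8 CPM in the M libraries. That was a smaller difference, again without overlap (log2 fold change 0.28 ± 0.08, adjusted p 0.0192). Pfkfb4 made up 76.2% to 79.4% of the summed TPM of the pair in D and 72.9% to 75.3% in M. Of the phosphofructokinase genes, which encode the subunits of the committed enzyme, Pfkp was higher, with 90.3, 91.4, 100.01 and 81.0 CPM in the D libraries, against 73.9, 69.7, 75.5 and 80.6 CPM in the M libraries (log2 fold change 0.27 ± 0.08, adjusted p 0.0192). The lowest D library and the highest M library of Pfkp were nearly level. Pfkl, the liver form, averaged 126 ± 30.2 CPM in the D libraries and 110.0 ± 6.38 CPM in the M libraries (SD, n = 4 each; log2 fold change 0.19 ± 0.14, adjusted p 0.330). Pfkm, the muscle form, averaged 9.55 ± 1.10 CPM in the D libraries and 10.7 ± 1.08 CPM in the M libraries (log2 fold change -0.16 ± 0.12, adjusted p 0.320).

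Aldoa, the aldolase that splits fructose 1,6-bisphosphate, had the highest level per length of this stretch (1658 ± 275 TPM in the D libraries and 1419 ± 89.6 TPM in the M libraries). It had 1210.5, 1430.2, 1679.5 and 1096 CPM in the D libraries, against 1204, 997, 1061 and 1082 CPM in the M libraries, with D replicates 2 and 3 well above every M library, D replicate 1 barely above and D replicate 4 among them, but missed the threshold (log2 fold change 0.32 ± 0.13, adjusted p 0.0736). Triose phosphate isomerase, Tpi1, averaged 266 ± 62.4 CPM in the D libraries and 213 ± 6.79 CPM in the M libraries (SD, n = 4 each) and likewise missed the threshold (log2 fold change 0.32 ± 0.14, adjusted p 0.0994). Aldoc, the brain form of aldolase, averaged 8.79 ± 5.59 CPM in the D libraries and 5.03 ± 0.862 CPM in the M libraries, the D mean resting on 17.1 CPM in D replicate 3 (log2 fold change 0.80 ± 0.37, adjusted p 0.121). Without D replicate 4, Aldoa (adjusted p 0.0314) and Tpi1 (0.0164) passed as higher, as did Aldoa without D replicate 1 (0.0350); Aldoc passed with the replicate block (0.0488) and in DESeq2's test (0.0436). Of the 4 calls of the step, those of Gpi1 (without M replicate 2, 0.0563, or 3, 0.0502), Pfkp (without M replicate 2, 0.0600) and Pfkfb3 (without M replicate 1, 0.0526, or 4, 0.0548) ended when a library was left out. With library totals, TPM or FPKM neither Pfkp (0.0962 to 0.129) nor Pfkfb3 (0.0652 to 0.107) passed, Pfkp also not without D replicates 1 and 3 together (0.0506), and with the most abundant transcript alone none of the 4 did, the log2 fold change of Pfkfb3 then being 0.03. Gpi1 has only 1 transcript, so its own counts were the same in that last fit.

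All 5 abundant genes of the payoff reactions were higher, and the remaining one, Eno2, was lower at a low level. Summed over the 6 genes, the level per length was 8908, 9661, 10059 and 8407 TPM in the D libraries, against 7931, 7489, 7794 and 7709 TPM in the M libraries, and the groups did not overlap. Gapdh, which oxidises glyceraldehyde 3-phosphate and was the most abundant of the 38 per length (4806 ± 224 TPM in the D libraries and 4157 ± 99.1 TPM in the M libraries), had 3418, 3563, 3999 and 3400.1 CPM in the D libraries, against 3031, 2793, 2865 and 2897 CPM in the M libraries. Its log2 fold change was 0.31 ± 0.08 (adjusted p 0.0137), and every D library stood above every M library. Pgk1, the kinase that makes the first ATP of this stretch, had 651, 771, 938 and 629.9 CPM in the D libraries, against 531, 529.7, 539 and 524 CPM in the M libraries (log2 fold change 0.49 ± 0.12, adjusted p 0.00868). Pgam1, the phosphoglycerate mutase, had 607, 663, 715 and 588 CPM in the D libraries, against 542, 489, 476 and 487 CPM in the M libraries (log2 fold change 0.37 ± 0.08, adjusted p 0.00668). In both genes every D library stood above every M library, by a small margin over M replicate 1 in Pgam1. Eno1, the ubiquitous enolase, had 938, 1272, 1462 and 981 CPM in the D libraries, against 834, 770.1, 836 and 798 CPM in the M libraries (log2 fold change 0.52 ± 0.13, adjusted p 0.0118). D replicates 2 and 3 stood apart from D replicates 1 and 4 in this gene, which were still above every M library. Pkm, pyruvate kinase of muscle and blood cells, had 2258, 2449, 2691 and 2142 CPM in the D libraries, against 2116, 1863, 1871 and 1842 CPM in the M libraries (log2 fold change 0.31 ± 0.09, adjusted p 0.0242), again without overlap. Gapdh, Pgk1, Pgam1 and Eno1 passed as higher under all 24 alternative settings. The Pkm call ended without D replicate 2 (0.0636) or M replicate 2, 3 or 4 (0.0683, 0.0649 and 0.0742). It also ended with library totals, unfiltered TPM and FPKM (adjusted p 0.0537 to 0.0719).

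Eno2, the neuronal enolase, had 1.66, 1.33, 0.993 and 0.677 CPM in the D libraries, against 3.22, 3.90, 1.80 and 1.81 CPM in the M libraries. Every D library lay below every M library (log2 fold change -1.20 ± 0.34, adjusted p 0.0191). Its level per length was 0.800 ± 0.325 TPM in the D libraries and 1.99 ± 0.798 TPM in the M libraries, and Eno1 made up over 99.6% of the summed TPM of the 2 enolases in every library (99.88% to 99.96% in D, 99.65% to 99.86% in M). The adjusted p was above the threshold once D replicate 4 (0.0551), M replicate 1 (0.0564) or M replicate 2 (0.0623) was left out, and likewise with the top transcript only (0.522). The gene dropped out of the test at a minimum count of 50. Of the 16 genes of the 10 glycolytic reactions from hexokinase to pyruvate kinase, 9 were higher, 1 was lower and 6 did not pass. Among all tested genes 17.4% were higher and 17.3% lower.

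Pkm transcripts differ by a choice between 2 alternative exons of 167 bases each, which gives the M1 and M2 forms of the enzyme. On GRCm38 the upstream one is chr9:59675029-59675195 and the downstream one chr9:59675568-59675734, both on the plus strand. The transcript with the downstream exon, which encodes the M2 form, led at 1022, 1258, 1330 and 1134 TPM in the D libraries, against 1154, 1119, 1133 and 1078 TPM in the M libraries, and the groups overlapped. That with the upstream exon, the M1 form, stood at 154 to 200 TPM in D and 149 to 183 TPM in M. A predicted transcript, XM_006510856, had 601, 496, 494 and 324 TPM in the D libraries, against 373, 245, 243 and 256 TPM in the M libraries. The gene's difference was thus spread unevenly over transcripts, and with the most abundant transcript alone Pkm missed the threshold (log2 fold change 0.16, adjusted p 0.332). Estimates for transcripts of a gene share most of their reads, so the TPM values of single transcripts were not tested. The fit on the most abundant transcript rests on such estimates too.

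At the lactate step, the genes of lactate formation and of the exporter were higher and the gene of the second transporter was lower. Ldha encodes the dehydrogenase subunit that favours making lactate from pyruvate. It had 728, 831, 882 and 669.6 CPM in the D libraries, against 515, 499.9, 564 and 529.6 CPM in the M libraries, with no overlap (log2 fold change 0.56 ± 0.09, adjusted p 0.00164), and was the highest gene of the step per length (881 ± 96.5 TPM in the D libraries and 637 ± 42.7 TPM in the M libraries). Slc16a3 encodes MCT4, the lactate exporter of highly glycolytic cells, and had 177, 279, 363 and 219 CPM in the D libraries, against 119, 115, 139.8 and 117 CPM in the M libraries. It rose 2.12-fold (log2 fold change 1.08 ± 0.19, adjusted p 0.00312), the largest called rise among the 38 genes in this fit, with D replicate 3 highest. Slc16a1 encodes MCT1, which carries lactate and pyruvate in either direction, and had 104, 83.8, 69.5 and 93.0 CPM in the D libraries, against 118, 129, 108 and 126 CPM in the M libraries. Here every D library was below every M library (log2 fold change -0.46 ± 0.11, adjusted p 0.0109), and D replicate 3 was lowest. Ldhb, whose subunit favours the return of lactate to pyruvate, averaged 6.20 ± 1.41 CPM in the D libraries and 7.19 ± 0.794 CPM in the M libraries (SD, n = 4 each) but missed the threshold (log2 fold change -0.21 ± 0.17, adjusted p 0.341). Ldha, Slc16a3 and Slc16a1 kept their calls under all 24 alternative settings.

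Because the transporter genes moved in opposite directions, their balance differed between the groups without overlap. Of the summed TPM of the pair, Slc16a3 held 75.7%, 85.9%, 90.6% and 81.1% in the D libraries, against 65.1%, 61.9%, 70.2% and 62.8% in the M libraries. The ratio of Slc16a3 to Slc16a1 TPM was 3.12, 6.08, 9.62 and 4.30 in the D libraries, against 1.87, 1.62, 2.36 and 1.69 in the M libraries. The ratio of Ldha to Ldhb TPM was 70.1, 141, 114 and 89.3 in the D libraries, against 60.4, 52.1, 70.5 and 51.1 in the M libraries. The groups overlapped only in that D replicate 1 lay just below M replicate 3. Slc16a3 overlaps Csnk1d, a tested gene, on the genome.

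**Figure D4:**
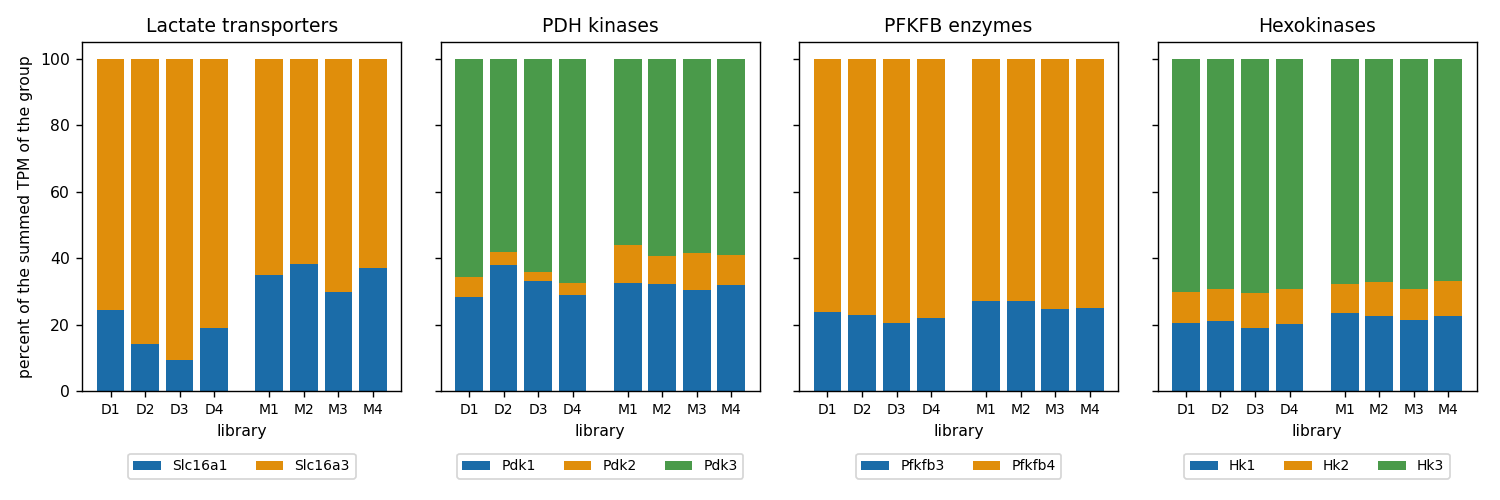
Share of each paralogue in the summed TPM of its group, one stacked bar a library, D libraries left of M libraries. Slc16a3 takes 75.7% to 90.6% of the transporter pair in D and 61.9% to 70.2% in M, and Pdk2 takes 2.47% to 6.09% of the 3 kinases in D and 8.45% to 11.6% in M.

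Of the genes of pyruvate entry, the carrier subunit Mpc1 and the kinase Pdk3 were higher and the kinase Pdk2 was lower. Mpc1, a subunit of the carrier that brings pyruvate across the inner mitochondrial membrane, had the highest level per length of the step (243 ± 28.9 TPM in the D libraries and 195 ± 12.7 TPM in the M libraries). It had 118, 138, 174 and 138 CPM in the D libraries, against 97.8, 111, 103 and 101 CPM in the M libraries, with every D library above every M library (log2 fold change 0.46 ± 0.11, adjusted p 0.00751). Its partner Mpc2 averaged 38.8 ± 3.87 CPM in the D libraries and 33.7 ± 2.91 CPM in the M libraries (SD, n = 4 each) but missed the threshold (log2 fold change 0.20 ± 0.09, adjusted p 0.107). It passed as higher with the replicate block (adjusted p 0.0404). The genes of the 2 subunits of the E1 enzyme of pyruvate dehydrogenase stayed near a log2 fold change of 0. Pdha1 averaged 123 ± 4.63 CPM in the D libraries and 119.9 ± 6.55 CPM in the M libraries (log2 fold change 0.04 ± 0.06, adjusted p 0.680). Pdhb averaged 67.1 ± 8.60 CPM in the D libraries and 71.0 ± 2.70 CPM in the M libraries (log2 fold change -0.08 ± 0.09, adjusted p 0.513). Other genes of the complex, taken from the wider list described below, were split. Dlat (log2 fold change 0.22 ± 0.08, adjusted p 0.0467) and Dld (0.24 ± 0.07, adjusted p 0.0249) were called higher in D without overlap. The lowest D library of Dlat was nearly level with its highest M library (46.5 and 46.4 CPM). Pdhx was not called, at -0.08 ± 0.10 with an adjusted p of 0.542. With the most abundant transcript alone, the Mpc1 call ended (adjusted p 0.0699).

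The pyruvate dehydrogenase kinases, which phosphorylate and inactivate the E1 enzyme, did not move together. Pdk3, the leading form per length here (40.1 ± 3.93 TPM in the D libraries and 30.7 ± 1.84 TPM in the M libraries), had 43.1, 39.0, 53.4 and 44.5 CPM in the D libraries, against 31.0, 32.4, 31.2 and 34.4 CPM in the M libraries, and rose without overlap (log2 fold change 0.48 ± 0.10, adjusted p 0.00373). Pdk2 had 4.43, 2.96, 2.26 and 2.81 CPM in the D libraries, against 7.08, 5.10, 6.61 and 5.77 CPM in the M libraries. All D libraries were below all M libraries (log2 fold change -0.97 ± 0.20, adjusted p 0.00473), with D replicate 3 again lowest. Pdk1, the form known as a target of hypoxia-inducible factor, averaged 47.1 ± 8.81 CPM in the D libraries and 37.6 ± 1.39 CPM in the M libraries (SD, n = 4 each) and just missed the threshold (log2 fold change 0.33 ± 0.12, adjusted p 0.0522). It passed under 6 alternatives, among them without D replicate 1 (0.0119), without D replicate 4 (0.0267) and in DESeq2's test (0.0284). The Pdk2 and Pdk3 calls held under all 24 alternative settings. The ratio of Pdk3 to Pdk2 TPM was 10.8, 14.6, 26.0 and 17.5 in the D libraries, against 4.84, 7.01, 5.21 and 6.58 in the M libraries. Pdk2 itself stood at only 2.54 ± 0.825 TPM in the D libraries and 5.28 ± 0.709 TPM in the M libraries, the lowest of the 3 kinases per length.

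In the pentose phosphate pathway, 2 genes were higher and 2 lower, both lower ones at a lower level per length. G6pdx, the X-linked gene of the dehydrogenase that opens the pathway and makes NADPH, had 445, 453, 550.0 and 490.1 CPM in the D libraries, against 442, 389.6, 379.6 and 369 CPM in the M libraries (log2 fold change 0.29 ± 0.09, adjusted p 0.0268). Its lowest D library stood just above its highest M library. Pgls, the lactonase of the second reaction, had 39.9, 33.7, 33.1 and 35.8 CPM in the D libraries, against 65.4, 47.2, 49.6 and 50.4 CPM in the M libraries (log2 fold change -0.58 ± 0.11, adjusted p 0.00294), so that every D library was below every M library. The ratio of Pgls to G6pdx TPM was 0.242, 0.201, 0.163 and 0.197 in the D libraries, against 0.391, 0.321, 0.345 and 0.360 in the M libraries. Pgd, whose enzyme makes the second NADPH, averaged 1185 ± 115 CPM in the D libraries and 1068 ± 129 CPM in the M libraries (SD, n = 4 each) but missed the threshold (log2 fold change 0.15 ± 0.10, adjusted p 0.279).

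Among the genes of the reactions that follow, Taldo1, the transaldolase, had the highest level per length of the pathway (1260.4 ± 60.6 TPM in the D libraries and 1109.8 ± 41.6 TPM in the M libraries). It had 808, 815, 972 and 867 CPM in the D libraries, against 706, 702, 735 and 712 CPM in the M libraries, without overlap (log2 fold change 0.28 ± 0.08, adjusted p 0.0184). Tkt, the transketolase, averaged 1342 ± 153 CPM in the D libraries and 1188 ± 94.9 CPM in the M libraries (SD, n = 4 each; log2 fold change 0.18 ± 0.10, adjusted p 0.179), which did not pass. Rpia, the isomerase that makes ribose 5-phosphate, had 76.1, 74.2, 76.5 and 69.3 CPM in the D libraries, against 93.6, 87.8, 77.5 and 85.5 CPM in the M libraries. Its highest D library was just below its lowest M library, and the small fall passed (log2 fold change -0.22 ± 0.07, adjusted p 0.0371). It no longer did without D replicate 1, 2 or 4 (0.0567, 0.0809 and 0.156) or M replicate 1, 2 or 4 (0.0936, 0.0842 and 0.0757). The call of G6pdx ended without D replicate 4 (0.0582) or M replicate 2, 3 or 4 (0.0680, 0.0728 and 0.0834), and that of Taldo1 without M replicate 2 (0.0518) or 4 (0.0519). With library totals, unfiltered TPM and FPKM neither G6pdx (0.0612 to 0.0708) nor Taldo1 (0.0545 to 0.0588) passed. With the most abundant transcript alone G6pdx (0.0657) and Rpia (0.0634) did not pass, nor did Rpia with DESeq2 size factors (0.0583), without a filter (0.0519) or without D replicates 1 and 3 together (0.0524). Both G6pdx and Rpia have only 1 transcript, so their own counts were the same in the fit on the most abundant transcript. Pgls kept its call under all 24 alternative settings.

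Level per length and direction went together among the members. Of the 16 with a mean of 200 TPM or more over the 8 libraries, 12 were higher and none lower. Of the 22 under 200 TPM, 7 were higher and 5 lower, and all 5 lower members were among the 20 under 100 TPM. The split at 200 TPM was chosen after the values were seen and was not tested. Shares among all tested genes at these levels were not counted, so the pattern cannot be called particular to the members. Of the 14 members that did not pass, 7 had D replicates 2 and 3 above every M library, 5 of those also D replicate 1 and 3 also D replicate 4. How often this occurred among all tested genes was not counted, so it too cannot be called particular to the members. D replicate 3 was the highest of the 8 libraries for 26.1% of all tested genes.

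**Figure D5:**
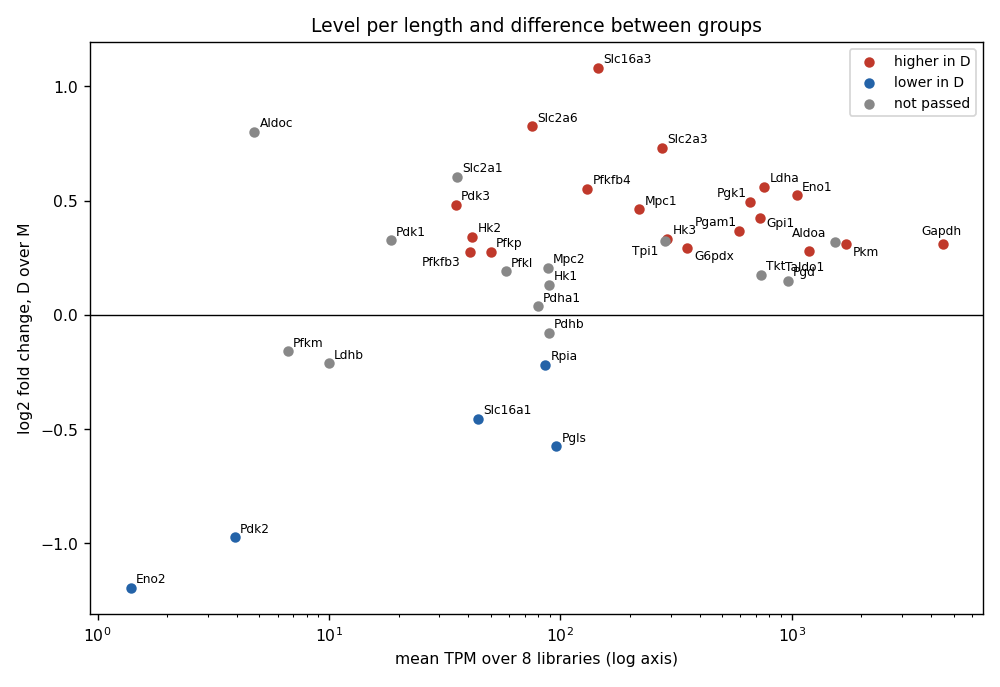
Each of the 38 genes by its mean level over the 8 libraries (TPM, log axis) and its log2 fold change, D over M; colours give the call. The 16 genes at or above 200 TPM all lie above 0, and the 5 blue genes, lower in D, all lie under 100 TPM.

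The promoters of 5 members are shown, 4 as pairs of genes that moved in opposite directions at the same step, and that of Ldha as the other gene of the lactate step called higher. They were picked after their values were seen. Slc16a3 (chromosome 11, 120948484 to 120959000) and Slc16a1 (chromosome 3, 104638664 to 104658462) are the transporter pair. Pdk3 (chromosome X, 93764616 to 93832150) and Pdk2 (chromosome 11, 95026258 to 95041371) are the kinase pair, and Ldha (chromosome 7, 46842274 to 46855627) makes the lactate. Pdk2 and Ldha have 2 windows each, of which 1 is printed. The windows are RefSeq's for GRCm38.p6, 250 bases before to 50 after a start, given 5′ to 3′ on the gene's strand. Capitals mark ACGTG or GCGTG on either strand, the core of the hypoxia response element that HIF-1 binds.
Slc16a3, chr11:120948817-120949116, plus strand: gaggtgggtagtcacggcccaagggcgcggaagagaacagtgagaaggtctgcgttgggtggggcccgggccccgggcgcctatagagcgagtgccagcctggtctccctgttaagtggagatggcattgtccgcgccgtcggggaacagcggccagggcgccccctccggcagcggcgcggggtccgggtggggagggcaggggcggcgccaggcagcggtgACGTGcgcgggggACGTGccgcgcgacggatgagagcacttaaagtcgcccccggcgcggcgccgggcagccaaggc
Slc16a1, chr3:104638414-104638713, plus strand: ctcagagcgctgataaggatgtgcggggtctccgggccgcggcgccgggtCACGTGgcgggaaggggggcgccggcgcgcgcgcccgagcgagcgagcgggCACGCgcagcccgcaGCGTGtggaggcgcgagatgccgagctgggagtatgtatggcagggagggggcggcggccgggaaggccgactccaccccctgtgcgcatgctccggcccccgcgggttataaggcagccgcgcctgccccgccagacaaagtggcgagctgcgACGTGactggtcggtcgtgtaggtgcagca
Pdk3, chrX:93832101-93832400, minus strand: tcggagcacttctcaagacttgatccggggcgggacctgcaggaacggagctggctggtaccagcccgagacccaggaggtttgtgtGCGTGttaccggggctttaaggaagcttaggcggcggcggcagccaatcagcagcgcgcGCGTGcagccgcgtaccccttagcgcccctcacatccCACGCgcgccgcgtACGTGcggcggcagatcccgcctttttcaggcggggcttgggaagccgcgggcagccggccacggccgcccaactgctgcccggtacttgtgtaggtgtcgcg
Pdk2, chr11:95041322-95041621, minus strand: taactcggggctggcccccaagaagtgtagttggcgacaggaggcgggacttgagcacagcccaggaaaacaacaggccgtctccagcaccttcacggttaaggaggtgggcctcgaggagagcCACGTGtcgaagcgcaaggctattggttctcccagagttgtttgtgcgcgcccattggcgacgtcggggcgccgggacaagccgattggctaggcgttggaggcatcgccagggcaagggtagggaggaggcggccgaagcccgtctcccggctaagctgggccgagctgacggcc
Ldha, chr7:46845554-46845853, plus strand: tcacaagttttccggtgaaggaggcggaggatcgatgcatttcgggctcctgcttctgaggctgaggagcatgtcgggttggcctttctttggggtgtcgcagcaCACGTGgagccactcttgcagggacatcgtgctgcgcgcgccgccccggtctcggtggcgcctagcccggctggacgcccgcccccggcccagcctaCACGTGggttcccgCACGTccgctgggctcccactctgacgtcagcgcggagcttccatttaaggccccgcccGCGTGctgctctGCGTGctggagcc

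Counted on each strand, the core occurred 2 times in the Slc16a3 window, 5 times in that of Slc16a1, 4 times in that of Pdk3, 2 times in that of Pdk2 and 7 times in that of Ldha. Each E-box, CACGTG, holds the core on both strands and so counts 2 times. One E-box lies in the Slc16a1 window, 1 in that of Pdk2 and 2 in that of Ldha. The Pdk2 window not printed, chr11:95040826-95041125, held neither core nor E-box, and that of Ldha, chr7:46846832-46847131, held the core 2 times and no E-box. RefSeq's table held 53 windows for 37 of the 38 members and none for Slc2a3. The core was in 42 of the 53 windows (79.2%), in 60.1% of the 13160 windows of tested genes and in 43.8% of all 32851 windows. It was in 21 of 24 windows of higher members, 4 of 6 of lower members and 17 of 23 of members that did not pass. The E-box was in 9.43% of the members' windows and 9.70% of those of tested genes. The antioxidant response element core, TGACNNNGC, was in 13.2% and 14.2%, and the GC box, GGGCGG, in 62.3% and 59.6%, all on both strands. A match describes the letters of the window and was not tested as a site.

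A wider list of 53 genes of the same and adjoining pathways gave 14 higher and 3 lower among 40 tested, beside the 17.4% and 17.3% of all tested genes. Its members in the table numbered 52, and 23 of those tested did not pass, with a median log2 fold change of 0.03. The lowest p belonged to Emb, embigin, an accessory protein of monocarboxylate transporters, at 681 ± 40.2 CPM in the D libraries and 450.2 ± 34.7 CPM in the M libraries (SD, n = 4 each; log2 fold change 0.60 ± 0.08, adjusted p 4.60e-04). Slc2a9, a transporter of urate and sugars, was lower at 3.75 ± 0.260 CPM in the D libraries and 7.00 ± 0.675 CPM in the M libraries (log2 fold change -0.90 ± 0.13, adjusted p 5.80e-04). Genes of glycogen synthesis and of the sugar phosphates that feed it were among the higher ones. They were Gyg, glycogenin (log2 fold change 0.74 ± 0.14), Gys1, glycogen synthase (0.56 ± 0.13), Ugp2, which makes UDP-glucose (0.46 ± 0.09), and Pgm2, a phosphoglucomutase family member (0.47 ± 0.07). Adpgk, the ADP-dependent glucokinase, had a log2 fold change of 0.68 ± 0.17, Rpe, the epimerase of the pentose phosphate pathway, of 0.43 ± 0.07, and Galm, the mutarotase, of 0.43 ± 0.12. Ldhc, the lactate dehydrogenase known from testis, was higher at a low level, 8.84 ± 1.51 CPM in the D libraries and 3.48 ± 1.27 CPM in the M libraries.

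Of 14 regulators of sugar use, 13 were tested, 4 were higher and 1 was lower, a share near the 34.7% called among all tested genes. Hif1a, the oxygen-regulated subunit of HIF-1, had 153, 241, 216 and 189.7 CPM in the D libraries, against 114, 141, 139.6 and 122 CPM in the M libraries (log2 fold change 0.63 ± 0.13, adjusted p 0.00475). Txnip, a gene induced by glucose whose protein restrains glucose uptake, had 264, 428, 567 and 366 CPM in the D libraries, against 203, 262, 255 and 231 CPM in the M libraries (log2 fold change 0.77 ± 0.20, adjusted p 0.0159). Both genes had every D library above every M library. Prkaa1, a catalytic subunit of the energy sensor AMPK, averaged 112 ± 20.7 CPM in the D libraries and 69.5 ± 3.44 CPM in the M libraries (log2 fold change 0.69 ± 0.12), and Nfe2l2, the antioxidant regulator NRF2, averaged 352 ± 8.59 CPM in the D libraries and 302 ± 15.4 CPM in the M libraries (log2 fold change 0.22 ± 0.06), all SD with n = 4 each. Ppargc1a, the coactivator of mitochondrial genes, was lower and near the floor, at 0.441 ± 0.0772 CPM in the D libraries and 1.54 ± 0.142 CPM in the M libraries (log2 fold change -1.79 ± 0.24).

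Copies and neighbours on the genome limit some of these values. RefSeq names pseudogenes of Aldoa, Gapdh, Pgk1, Pgam1, Ldha, Ldhb and Mpc1, none of which was in the table, so reads from such copies could have been counted to these genes. Eno1 has a near-identical copy, Eno1b, that was counted separately, and reads could be split between them. Besides Hk3 and Slc16a3, the members Pfkm, Pfkp, Tpi1, Pdha1 and G6pdx overlap a tested gene.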

How the data were processed

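Per the labels' design text, messenger RNA was captured with oligo(dT), read filtering used SOAPnuke 1.5.6, and the aligner to mm10 is spelled HISTA2 2.1.0. GRCm38 is named in the submitters' processing notes. The sources used here give no quantifier, annotation release or use of strand. Per the file headers, the authors' main values are estimated counts of RefSeq transcripts, not normalized, of which 37.3% to 40.8% a library were whole. The authors' TPM (per length, to a common total) and the authors' FPKM (per length and library size) were deposited beside them. Left unused were 8 more columns of library values and 8 of group means.

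In all, 60072 transcripts belonged to 17890 NCBI gene IDs, and 17836 IDs matched a symbol in RefSeq's table of GRCm38.p6. Second entries of 1575 transcripts, 1.41% of counts, were summed with the rest. Per gene, the estimated counts were added up, rounded to integers and filtered with filterByExpr (minimum count 10, minimum total 15). Groups were compared by the quasi-likelihood F-test of edgeR 4.0.16 with TMM factors (0.913 to 1.01 in D, 1.03 to 1.05 in M) and group as the only term, in R 4.3.3, with Benjamini-Hochberg adjustment over 12839 genes. The common coefficient of biological variation was 12.4%. CPM use the TMM-scaled library sizes, and TPM were summed per gene. The scripts were tested on simulated data.

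Alternatives were DESeq2 1.42.0 (its size factors in edgeR, and its own test), upper-quartile factors, library totals, no filter, a minimum count of 50, voom of limma 3.58.1 with and without quality weights, limma on log2(TPM + 1), log2(TPM + 0.1) and log2(FPKM + 1), the most abundant transcript of each gene, second entries left out, each library left out, D replicates 1 and 3 left out together, and the replicate number as a block. For D and M libraries of the same number, deviations from the group means correlated at 0.115, 0.131, 0.119 and 0.182, and those of other pairs at -0.178 to 0.0735. These correlations are small, and deviations from a group mean sum to 0, which ties them to one another. No label says what the numbers stand for, so whether they pair the samples is not known. The main fit did not pair the samples, and the block was run only as an alternative. The block kept all 24 calls of the members and its value is given where it added a call.

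The 38 members and the lists of markers, regulators and wider pathway genes were chosen with earlier results of these data known. Every member is named. Values of each library are given for members past the threshold and for the highest of each step by mean TPM, and for a few others (Slc2a1, Hif1a, Txnip, Lyz2) chosen after their values were seen. Of the wider list, the 10 called genes with the lowest p are named. Dlat, Dld and Pdhx of that list are also named, a choice made after their values were seen. Paralogue shares, TPM of single transcripts and promoter motifs are descriptions without a test. Only the fit on the most abundant transcript of each gene tested estimates of single transcripts.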

Additional observations from a re-analysis of the deposited data

Results flagged for a closer look

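Of 76 groups of 4 libraries, 7 held a library far from the other 3 by Dixon's test, where chance gives about 1 in 20 groups. D replicate 3 was the high library in 4 of them. It had 628 CPM of Hk3 (the other D libraries 514 to 530 CPM), 1604 CPM of Gpi1 (1159 to 1212 CPM), 17.1 CPM of Aldoc (5.21 to 6.89 CPM) and 1357 CPM of Pgd (1118 to 1143 CPM). M replicate 1 was the high library in the other 3. It had 119.6 CPM of Pfkl (the other M libraries 106.5 to 107.0 CPM), 2116 CPM of Pkm (1842 to 1871 CPM) and 1259.5 CPM of Pgd (973 to 1022 CPM). D replicate 3 also had the highest neutrophil and macrophage marker sums of the D libraries, whose part in these values was not tested.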

How the results depend on the processing

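Of the 24 called members, 11 kept their call under all 24 alternatives and 15 in every fit with a library left out, and none turned direction. Of 910 values for single members, 820 kept direction and side of the threshold, 67 lost the call, 17 gained it and 6 turned direction. The members called, 19 higher and 5 lower, ran from 13 to 22 higher and from 3 to 5 lower with each library left out. They were 13 and 3 without M replicate 2, beside 13.5% and 13.8% of all genes tested in that fit. Without M replicate 1 they were 17 and 3, beside 13.7% and 13.8%. Without D replicate 4 they were 22 and 3, beside 14.6% and 12.2%. Counts of the top transcript per gene gave 9 and 3, and the cause was not tested. Of all genes tested in that fit, 1088 (8.72%) were higher and 964 (7.73%) lower. Leaving out a library moved the genes called higher between 1710 (13.2%) and 2865 (22.1%) and those called lower between 1583 (12.2%) and 2504 (19.3%). Scaling by library totals lowered the median log2 fold change of all genes by 0.10 and gave 3346 lower genes. The share of calls that were higher was then 31.3%, against 50.1% as reported. With that scaling 13 members were higher and 5 lower, beside 11.9% and 26.1% of all tested genes. Genes called higher were 1460 (12.5% of those tested) with log2(TPM + 1) and 1456 (12.5%) with log2(TPM + 0.1). They were 1350 (7.55%) with log2(TPM + 1) and no filter, and 1356 (12.3%) with log2(FPKM + 1). All of these fits lowered the median by 0.09 to 0.10. Members called higher were then 16, 16, 13 and 13. Pdha1 turned to log2 fold changes of -0.069 with library totals, -0.053 in the 3 TPM fits and -0.067 with FPKM. Pdhb ran from -0.13 to 0.0092 with each library left out, turning without D replicate 3. The replicate block gave 22 higher and 5 lower members, beside 18.8% and 18.7% of all tested genes. It added Slc2a1, Aldoc and Mpc2 and changed no other member's call. Eno2 was not tested at a minimum count of 50 or with FPKM. Depth limits Eno2, at 0.68 to 3.90 CPM, more than the other members.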
